A study of Arabidopsis thaliana with 2 samples.

Results

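This account covers 10 tau class glutathione transferase genes of Arabidopsis thaliana, GSTU1 to GSTU7, GSTU19, GSTU24 and GSTU25, chosen by locus identifier from a deposited table of 26743 features. A row was found for 9 of the 10 loci: GSTU1 (AT2G29490), GSTU2 (AT2G29480), GSTU4 (AT2G29460), GSTU5 (AT2G29450), GSTU6 (AT2G29440), GSTU7 (AT2G29420), GSTU19 (AT1G78380), GSTU24 (AT1G17170) and GSTU25 (AT1G17180). GSTU3 (AT2G29470) was not analysed here. The genes were picked with their difference between genotypes already known, so that difference is described below and supports nothing beyond these libraries. RNA from whole seedlings aged 7 days was sequenced in 1 jmj17-1 mutant library and 1 wild-type (WT) library, both in the Col-0 background and from days of 16 h light and 8 h dark on a medium that lacked sucrose. Age and light are those of the titles and growth notes. The extraction notes, which are worded alike for both libraries, also mention dark-grown seedlings, and no label assigns either library to them. JMJ17 is a demethylase of lysine 4 on histone H3. The labels state neither the lesion in jmj17-1 nor how many seedlings went into a library.

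Each genotype has 1 library, so no difference below has a replicate check, and no p-value was calculated. Levels are in RPKM (reads scaled to feature length and library depth) and rested on about 45403267 reads in jmj17-1 and 53890006 in WT, as estimated from low values. JMJ17 itself stood at 2.90 RPKM in jmj17-1 and 5.48 in WT. The label of whole seedling was checked on organ markers. The 5 shoot markers summed to 19456 RPKM in jmj17-1 and 22532 in WT, and all 5 were lower in jmj17-1. Of all features with a mean of at least 1 RPKM, 60.5% were higher in jmj17-1. The 13 root markers summed to 127 RPKM in jmj17-1 and 124 in WT. The 5 seed storage markers summed to 2.55 RPKM in jmj17-1 and 14.3 in WT. Most of both sums came from CRU3, at 0.551 RPKM in jmj17-1 and 6.34 in WT, and CRA1, at 1.70 RPKM in jmj17-1 and 7.39 in WT. OLEO1, SESA1 and SESA3 had means under 1 RPKM, with SESA1 listed at 0 in jmj17-1 and SESA3 higher in jmj17-1. In RNA of whole seedlings, a different share of an organ and a different level of RNA per cell cannot be told apart.

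Glutathione transferases join the tripeptide glutathione to reactive, electrophilic compounds, and the conjugates are then carried into the vacuole by ABCC transporters. The tau class is the large class found in plants, named GSTU, and several of its genes are known for their induction by herbicide safeners, foreign chemicals and oxylipins. That induction is known to involve TGA transcription factors, which bind the letters TGACG, and the GRAS protein SCL14. A pair of TGACG letters close together is the core of the as-1 element, a promoter element known from studies of plant stress and hormone responses.

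The members lie in 3 tandem arrays, and their upstream letters are shown for the genes on which the description turns. GSTU1 to GSTU7 lie on the minus strand of chromosome 2 between positions 12617936 and 12632538 of TAIR10.1. GSTU24 and GSTU25 lie on the plus strand of chromosome 1, at 5869543 to 5870883 and at 5872024 to 5873124. GSTU19 is read from the minus strand of chromosome 1, at 29486387 to 29488007. The runs below, from the TAIR10.1 assembly with RefSeq gene starts, end at the base before the annotated start. Each is 250 bases long or stops where another annotated gene begins, and capitals mark TGACG on either strand (CGTCA when read on the other strand). GSTU24, GSTU7 and GSTU4 had the largest log2 ratios, GSTU1 has the paired motif, GSTU25 is the array partner of GSTU24, and GSTU5 was the member lower in jmj17-1.
GSTU24 (chr1:5869437-5869542, plus strand): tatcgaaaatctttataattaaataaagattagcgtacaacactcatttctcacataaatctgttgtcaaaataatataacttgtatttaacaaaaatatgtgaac
GSTU7 (chr2:12618900-12619057, minus strand): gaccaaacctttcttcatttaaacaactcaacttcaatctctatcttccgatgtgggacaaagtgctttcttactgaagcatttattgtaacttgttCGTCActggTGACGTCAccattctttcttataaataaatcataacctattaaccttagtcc
GSTU4 (chr2:12627892-12628141, minus strand): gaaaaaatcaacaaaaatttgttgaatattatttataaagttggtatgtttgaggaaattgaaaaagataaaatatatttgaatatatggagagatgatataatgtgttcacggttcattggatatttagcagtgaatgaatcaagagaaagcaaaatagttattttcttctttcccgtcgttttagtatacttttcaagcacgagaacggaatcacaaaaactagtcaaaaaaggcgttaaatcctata
GSTU1 (chr2:12632539-12632788, minus strand): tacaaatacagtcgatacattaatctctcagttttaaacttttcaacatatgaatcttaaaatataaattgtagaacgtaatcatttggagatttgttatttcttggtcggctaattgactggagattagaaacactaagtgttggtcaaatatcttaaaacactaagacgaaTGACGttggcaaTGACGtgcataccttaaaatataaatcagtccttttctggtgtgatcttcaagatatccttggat
GSTU25 (chr1:5871774-5872023, plus strand): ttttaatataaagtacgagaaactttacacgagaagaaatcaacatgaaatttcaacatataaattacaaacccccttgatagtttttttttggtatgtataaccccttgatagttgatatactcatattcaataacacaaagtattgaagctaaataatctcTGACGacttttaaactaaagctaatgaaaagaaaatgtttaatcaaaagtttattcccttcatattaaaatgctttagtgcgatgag
GSTU5 (chr2:12625791-12625853, minus strand): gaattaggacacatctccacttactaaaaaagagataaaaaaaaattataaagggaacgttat

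GSTU1 held 2 copies of TGACG whose first letters lie 12 bases apart, at 77 and 65 bases before its start. GSTU7 held the palindrome TGACGTCA, which reads as TGACG on both strands, and a further copy on the other strand at 61 bases before the start. Over the full windows of 250 bases, searched on both strands, 7 of the 10 members held TGACG, against 4 of 18 other tau class genes and 18.6% of 27443 nuclear protein-coding genes. Of those 7, GSTU24 and GSTU5 held it only inside a neighbouring annotated gene, which leaves 5 of 10 members, among them GSTU3, which has no level here. Under that same rule, outside any other annotated gene, 4 of 18 other tau class genes and 14.8% of all windows held it. The stretch searched under it was shorter than 250 bases for the members GSTU2 (19), GSTU5 (63), GSTU24 (106) and GSTU7 (158). Among the other tau class genes it was shorter for GSTU10 (0), GSTU18 (0), GSTU28 (58) and GSTU8 (143). GSTU10 and GSTU18 therefore could not hold the motif under that rule. At least 2 copies were found in 2 of 10 members (GSTU1 and GSTU7), 1 of 18 other tau class genes and 3.21% of all windows. The W-box core TTGAC, which shares letters with TGACG where they overlap, was found in 7 of 10 members, 10 of 18 other tau class genes and 44.9% of all windows. The G-box CACGTG was found in 0 of 10 members, 2 of 18 other tau class genes and 6.49% of all windows. These matches are letters in a window and not binding sites.

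The coding sequences are alike enough for the sharing of reads to be asked about. Each of the 10 members has 2 coding exons and 657 to 684 coding bases. Identity over 45 pairs of members ranged from 53.1% to 85.5%, with a median of 64.1%, and was highest between GSTU1 and GSTU2. Within GSTU1 to GSTU7 the median over 21 pairs was 74.0%. The longest run of identical letters between a member and the transcript of any other locus that does not overlap it was 42 bases, shared by GSTU2 and GSTU4 at coding bases 197 to 238. It is shown because both genes are low and reads within it cannot be assigned to either.
GSTU2 and GSTU4: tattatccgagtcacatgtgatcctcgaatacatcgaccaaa

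For GSTU7 no run of 25 bases or more was shared with another locus, and for the other members the longest runs had 30 to 35 bases. Read length was not known here. Overlap with genes of the opposite strand is a separate limit, because no source used here says whether counting kept the strands apart. GSTU7 overlaps the lncRNA AT2G08340 over 636 bases, and GSTU2 overlaps AT2G29485 over 849 bases, neither of them with a row in the table used. GSTU6 overlaps AT2G29430 over 398 bases, a locus at 0.186 RPKM in jmj17-1 and 0.235 in WT. GSTU7 also overlaps MTPB1 over 52 bases, which stood at 0.545 RPKM in jmj17-1 and 0.630 in WT. The values of GSTU2 and GSTU7 carry this uncertainty wherever they are given.

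Levels of the members spanned a wide range in each library, and 8 of the 9 measured members were higher in jmj17-1, where 60.5% of all analysed features were higher. GSTU24 was the most different in log2 ratio, at nearly double its WT level, and GSTU5 was the 1 member lower. GSTU19, known as a major tau class enzyme of seedlings, stood at 580.4 RPKM in jmj17-1 and 473 in WT. It was 76.3% of the summed level of the 9 members in jmj17-1 and 77.0% in WT, and 99.5% of all features in jmj17-1 and 99.3% in WT lay below it. The sum over the members was 760.4 RPKM in jmj17-1 and 614 in WT (fold 1.24), and GSTU19 made up 73.6% of the summed difference of 146.5 RPKM. Without GSTU19 the sum was 180.04 RPKM in jmj17-1 and 141 in WT (fold 1.27).

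**Figure D1:**
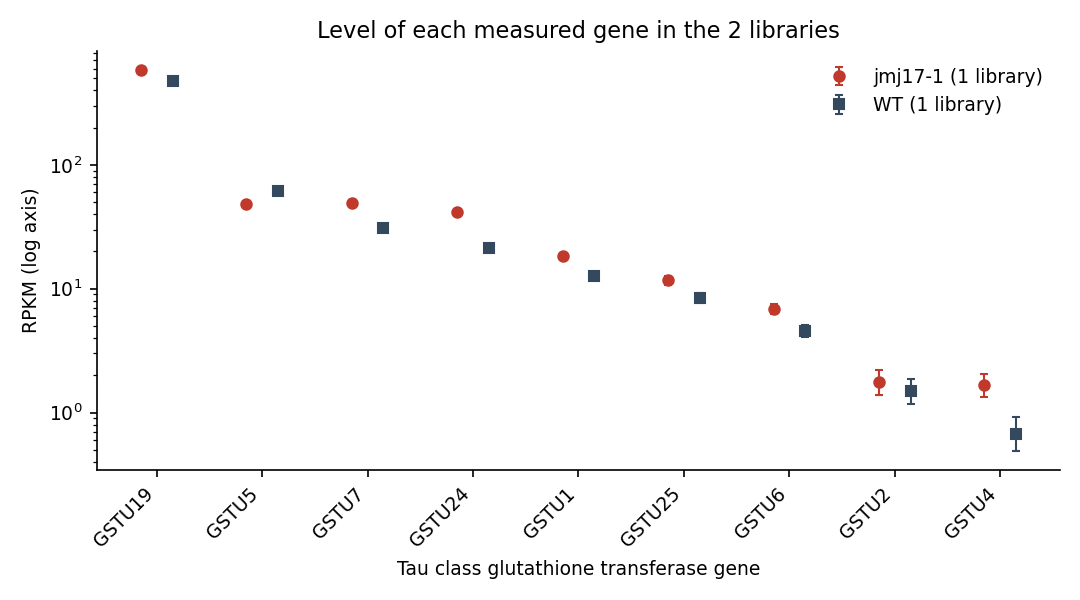
Level of each of the 9 measured genes in RPKM on a log axis, with jmj17-1 as circles and WT as squares; bars are exact 95% Poisson intervals of approximate reads and cover counting error only. GSTU19 stands far above the rest in both libraries, GSTU5 is the one gene with its jmj17-1 point below its WT point, and GSTU2 is the one gene whose bars overlap.

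The order of the middle genes differed between the libraries. In jmj17-1, GSTU7 at 49.7 RPKM (95% counting interval 47.5 to 51.9) and GSTU5 at 48.4 (46.6 to 50.2) had overlapping intervals, with GSTU24 next at 41.7 (39.97 to 43.4). In WT, GSTU5 was second at 61.2 RPKM (59.4 to 63.1), above GSTU7 at 30.8 (29.2 to 32.4) and GSTU24 at 21.4 (20.3 to 22.6). The ratio of GSTU5 to GSTU7 was accordingly 0.975 in jmj17-1 and 1.99 in WT. Below them the order was the same in both libraries, GSTU1, GSTU25 and GSTU6, and GSTU2 and GSTU4 were lowest. In jmj17-1 the intervals of GSTU2 and GSTU4 overlapped, at 1.39 to 2.20 and 1.34 to 2.05 RPKM, and in WT they did not.

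Each gene was given a log2 ratio, jmj17-1 over WT, after 1 was added to both RPKM values. The added 1 understates the difference of low genes, and features with a mean of at least 1 RPKM were analysed. Plain folds are ratios of RPKM without the added 1. None of the 9 members passed a 2-fold size rule in either direction, where 0.390% of 18969 analysed features were past it upward and 0.580% downward. At 1.5-fold, 3 of 9 members were past the rule upward (GSTU24, GSTU4 and GSTU7) and none downward, where 1.51% of all analysed features were past it upward and 1.93% downward. The members' median log2 ratio was 0.49, against 0.04 for all analysed features. Since these genes were chosen on this same difference, nothing follows from those shares.

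GSTU24, an enzyme known to act with GSTU25 on the explosive TNT, stood at 41.7 RPKM in jmj17-1 and 21.4 in WT, from about 2272 reads in jmj17-1 and 1386 in WT. Its fold was 1.95 (95% counting interval 1.82 to 2.08) and its log2 ratio 0.93, a value reached or passed by 0.511% of analysed features. It thus lay just under the 2-fold rule. GSTU25, its neighbour, stood at 11.7 RPKM in jmj17-1 and 8.43 in WT (fold 1.39, 1.22 to 1.57, log2 ratio 0.43). The counting intervals of these 2 folds did not overlap, although the coding sequences are 79.4% identical.

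GSTU7, known from studies of tolerance to the oxidative agent methyl viologen, stood at 49.7 RPKM in jmj17-1 and 30.8 in WT (fold 1.61, 1.51 to 1.73, log2 ratio 0.67). GSTU1 stood at 18.3 RPKM in jmj17-1 and 12.8 in WT (fold 1.43, 1.302 to 1.58, log2 ratio 0.49). GSTU6 stood at 6.86 RPKM in jmj17-1 and 4.55 in WT (fold 1.51, 1.29996 to 1.75, log2 ratio 0.50). The intervals of the folds of these 3 genes of the chromosome 2 array overlapped.

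GSTU5, of the same array, stood at 48.4 RPKM in jmj17-1 and 61.2 in WT (fold 0.791, 0.754 to 0.830, log2 ratio -0.33). It is the member with the second most reads, about 2792 in jmj17-1 and 4188 in WT, and 5.43% of analysed features had a log2 ratio as low or lower. GSTU6 lies next to it and is 83.1% identical to it in coding sequence. The direction of this pair of neighbours was opposite.

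GSTU19 had a narrow interval because of its depth, about 29512 reads in jmj17-1 and 28523 in WT, with a fold of 1.23 (1.21 to 1.25) and a log2 ratio of 0.30. GSTU4 stood at 1.67 RPKM in jmj17-1 and 0.674 in WT, from about 89 reads in jmj17-1 and 43 in WT. Its plain fold of 2.48 (1.69 to 3.62) was the highest of the members, but its log2 ratio of 0.68 did not pass 2-fold because of the added 1, and its mean passed the level filter only through the jmj17-1 library. GSTU2 stood at 1.76 RPKM in jmj17-1 and 1.49 in WT, from about 76 reads in each. Its fold of 1.19 had an interval of 0.852 to 1.65, so no difference was detectable at this depth.

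Across the members, the counting interval of the fold lay above 1 for 7 of 9, below 1 for GSTU5 and on both sides for GSTU2. Over all 18689 analysed features with a reference length it lay above 1 for 32.2% and below 1 for 17.0%, since deep libraries make such intervals narrow. They say nothing of the spread between seedlings.

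The other 18 tau class genes had a row each, and 14 reached a mean of 1 RPKM. None of the 14 was past 1.5-fold in either direction, where 1.51% of all analysed features were past it upward and 1.93% downward. Of the 14, 7 were above 0 and 7 below, where 60.5% of all analysed features were above 0. Their median log2 ratio was 0.00317, with a negative sign under 2 of the scalings tried (-0.04 and -0.02), and their range -0.43 to 0.43. The counting interval of the fold lay above 1 for 3 of them (GSTU8, GSTU16 and GSTU23), below 1 for GSTU18 and on both sides of 1 for the other 10. GSTU8, at the top of that range, stood at 47.7 RPKM in jmj17-1 and 35.1 in WT, and GSTU18, at the bottom, at 21.2 RPKM in jmj17-1 and 28.96 in WT. Summed over all 18, they stood at 766 RPKM in jmj17-1 and 765 in WT (fold 1.001). The 10 genes of the members' list and these 18 were separated with the result known, so the gap between the medians is a description only. The whole tau class took up 0.231% of the summed RPKM in jmj17-1 and 0.207% in WT, and the members were 49.8% of the class in jmj17-1 and 44.5% in WT.

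**Figure D2:**
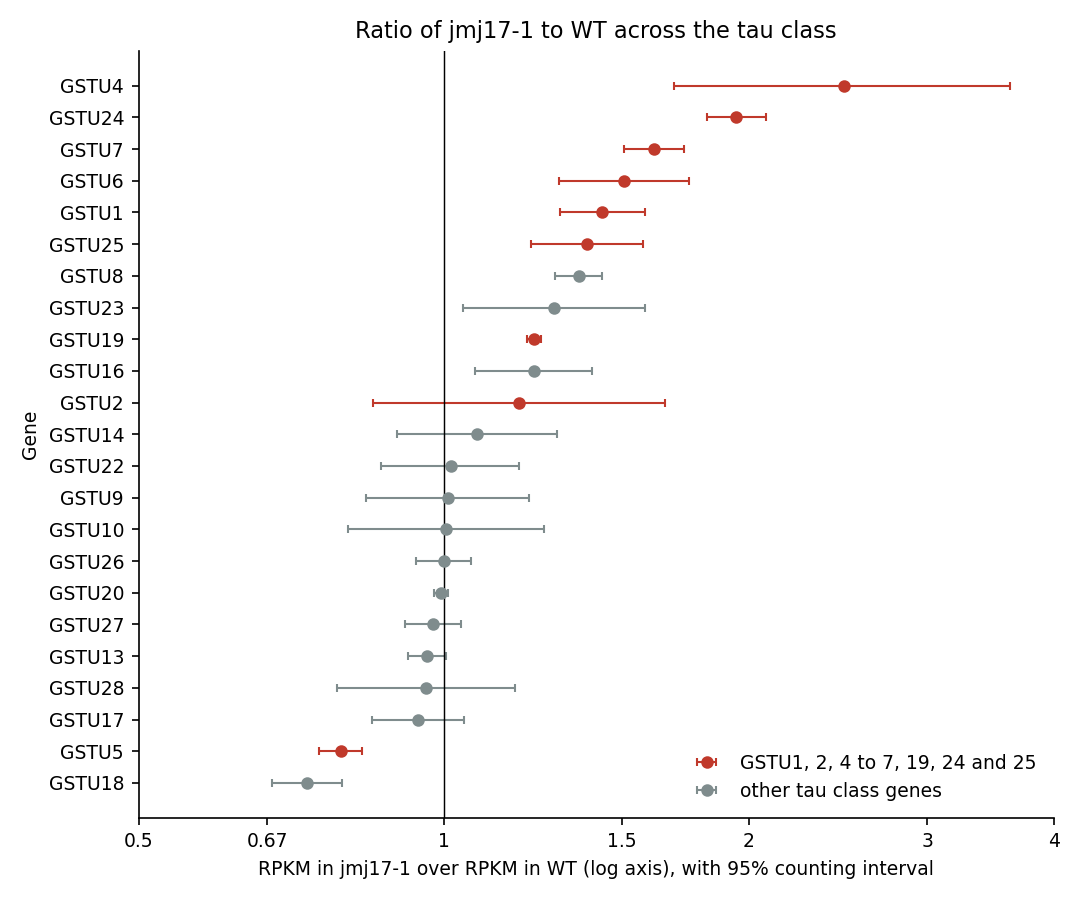
Ratio of RPKM in jmj17-1 to RPKM in WT on a log axis for the 23 analysed tau class genes, with 95% counting intervals; red marks the 9 members and grey the 14 other genes. 8 of the members lie to the right of 1, most of the other genes lie near 1, and GSTU5 and GSTU18 lie lowest.

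Position within an array did not go with a uniform shift. In the GSTU24 to GSTU26 array, GSTU26 stood at 37.9 RPKM in both libraries (fold 1.000, 0.939 to 1.06), next to GSTU25 and GSTU24. The ratio of GSTU24 to GSTU26 was 1.099 in jmj17-1 and 0.565 in WT, so GSTU24 was the more abundant of the pair in jmj17-1 and the less abundant in WT. In the GSTU19 to GSTU23 array, GSTU20, known for its interaction with the jasmonate-conjugating enzyme JAR1, stood at 505 RPKM in jmj17-1 and 508 in WT (fold 0.994, 0.978 to 1.01). GSTU19 was above GSTU20 in jmj17-1 with a ratio of 1.15 and below it in WT with 0.930. GSTU19 and GSTU20 together made up 71.1% of the tau class in each library.

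Of 15 flanking and interspersed loci with a row that are not tau class genes, 9 were analysed and none was past 1.5-fold. Past that rule were 1.51% of all analysed features upward and 1.93% downward. AT2G29500, next to GSTU1, stood at 11.2 RPKM in jmj17-1 and 8.58 in WT (log2 ratio 0.35). AT1G78410, near GSTU19, stood at 0.968 RPKM in jmj17-1 and 1.27 in WT (log2 ratio -0.20). AT2G29510 stood at 14.1 RPKM in jmj17-1 and 15.99 in WT, and ILP1 at 20.4 RPKM in jmj17-1 and 22.8 in WT. The median of the 9 was 0.03, close to that of all features.

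**Figure D3:**
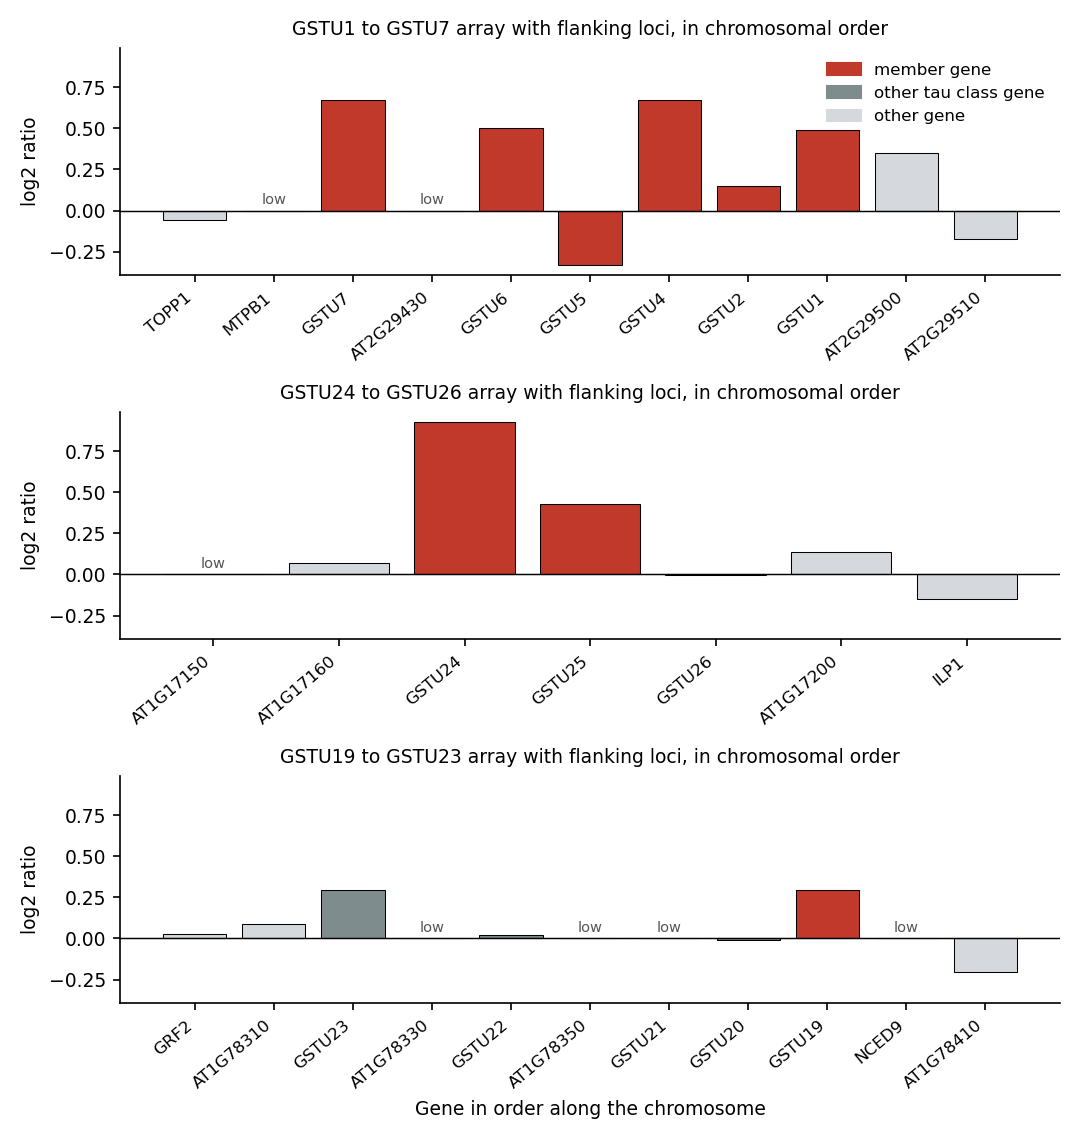
Log2 ratio of jmj17-1 to WT for the genes of each array and their flanking loci, drawn in chromosomal order and not to scale. The word "low" marks loci with a mean under 1 RPKM, which have no bar. Loci without a row, such as AT2G29485 and AT2G08340, are not drawn. GSTU3, which lies between GSTU4 and GSTU2, was not analysed. Bars of neighbouring tau class genes differ in size and in the case of GSTU5 in sign, while the flanking genes lie between -0.20 and 0.35.

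Other parts of the glutathione pathway were described by gene lists that were also written with results known. Of 25 glutathione transferases of other classes 22 were analysed, with a median log2 ratio of 0.10. Among them 3 were at least 2-fold higher, where 0.390% of all analysed features were, and none 2-fold lower, where 0.580% were. The 3 were the phi class genes GSTF6 at 70.7 RPKM in jmj17-1 and 21.8 in WT, GSTF2 at 100.2 RPKM in jmj17-1 and 44.7 in WT, and GSTF7 at 32.9 RPKM in jmj17-1 and 14.5 in WT. GSTF14 was the lowest of the list, at 7.38 RPKM in jmj17-1 and 12.8 in WT. The log2 ratios of the 3 phi class genes, 1.66 for GSTF6, 1.15 for GSTF2 and 1.13 for GSTF7, were above that of every tau member measured.

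Of 10 genes for glutathione synthesis, reduction, breakdown and conjugate transport none passed 1.5-fold, where 1.51% of all analysed features did upward and 1.93% downward. Above 0 were 8 of the 10, and their median was 0.17. ABCC2, a vacuolar transporter of glutathione conjugates, stood at 19.4 RPKM in jmj17-1 and 14.96 in WT (log2 ratio 0.35). GR1, the cytosolic glutathione reductase, stood at 49.7 RPKM in jmj17-1 and 40.2 in WT (log2 ratio 0.30). GSH2, glutathione synthetase, stood at 86.4 RPKM in jmj17-1 and 71.9 in WT, and GR2, the organellar reductase, at 84.8 RPKM in jmj17-1 and 71.05 in WT. The share above 0 among all analysed features is the 60.5% given above.

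Of 11 regulators, the TGA factors, SCL14 and NAC factors reported downstream of it, none passed 1.5-fold. Past that rule were 1.51% of all analysed features upward and 1.93% downward. The median of the 11 was 0.15. Above 0 were 7 of the 11, where 60.5% of all analysed features were. ANAC102 stood at 42.8 RPKM in jmj17-1 and 33.5 in WT (log2 ratio 0.34) and ANAC032 at 6.07 RPKM in jmj17-1 and 4.87 in WT (0.27). TGA1 stood at 21.1 RPKM in jmj17-1 and 25.7 in WT (-0.27), and ATAF1 at 17.7 RPKM in jmj17-1 and 14.8 in WT (0.24). SCL14 stood at 9.89 RPKM in jmj17-1 and 11.4 in WT. TGA2, TGA5 and TGA6, the group known for interaction with SCL14, had log2 ratios of 0.07, 0.15 and -0.06.

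A list of 9 genes known for induction by foreign chemicals or oxylipins, written with results of these libraries known, had a median log2 ratio of 1.00. By that ratio 4 were past 2-fold upward and 7 past 1.5-fold, where 0.390% and 1.51% of all analysed features were. None was past 1.5-fold downward, where 1.93% were. Because of the added 1, CYP81D8 (plain fold 2.09) and UGT75B1 (2.04) were not past 2-fold, nor OPR1 (1.505) past 1.5-fold. AKR4C9, an aldo-keto reductase, stood at 8.69 RPKM in jmj17-1 and 2.36 in WT. CYP81D11, a cytochrome P450, stood at 31.1 RPKM in jmj17-1 and 9.65 in WT. The efflux carrier DTX1 stood at 10.5 RPKM in jmj17-1 and 3.002 in WT, and the glucosyltransferase UGT74E2 at 5.62 RPKM in jmj17-1 and 1.66 in WT. These 4 genes, and UGT75B1 at 0.996, had larger log2 ratios than every tau member. CYP710A1, a sterol desaturase, was the 1 gene of the list below 0, at 3.39 RPKM in jmj17-1 and 3.85 in WT.

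**Figure D4:**
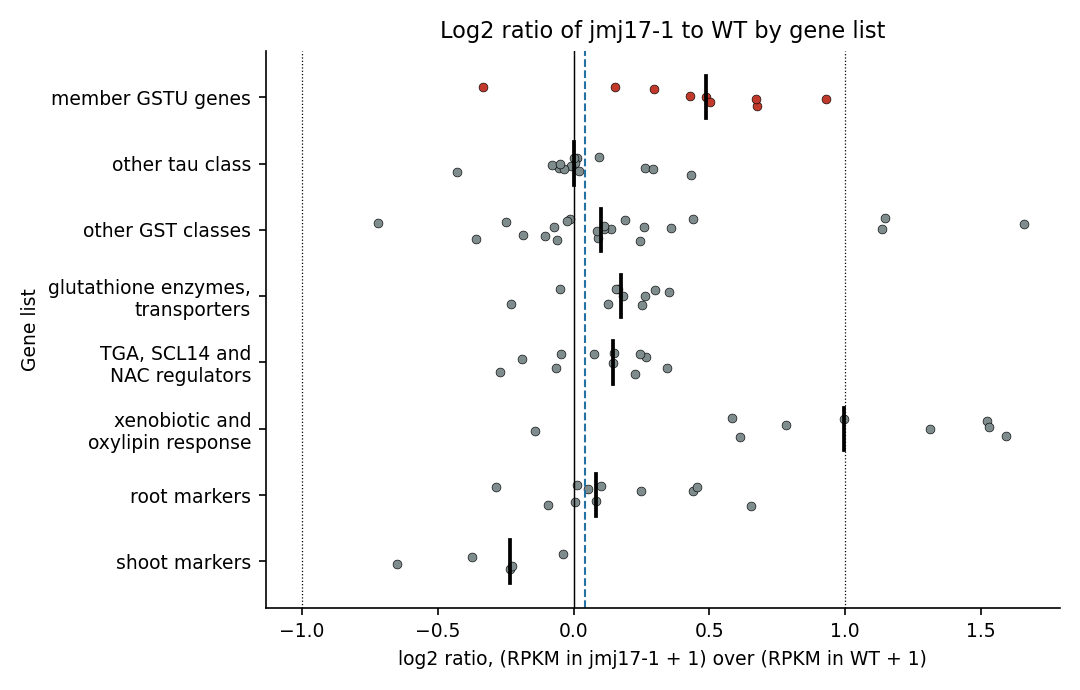
Log2 ratio of jmj17-1 to WT for each analysed gene of 8 lists, 1 point per gene, with the list median as a thick bar; the dashed line is the median of all analysed features (0.04) and dotted lines mark 2-fold. The 9 members lie between -0.33 and 0.93 with a median of 0.49, and the xenobiotic and oxylipin list lies furthest to the right.

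Root markers were examined beside the members, because glutathione transferases are abundant in roots. Of 13 root markers 11 were analysed. By the log2 ratio none was past 2-fold, where 0.390% of all analysed features were upward and 0.580% downward. Past 1.5-fold upward was 1, WOX5, where 1.51% of all analysed features were. WOX5 stood at 2.06 RPKM in jmj17-1 and 0.943 in WT, and its mean passed the level filter only through jmj17-1. Its plain fold was 2.18 (1.56 to 3.13), and its log2 ratio of 0.65 stayed under 2-fold because of the added 1. Of the 11 root markers 9 were above 0, where 60.5% of all analysed features were, and their median log2 ratio was 0.08. All 13 summed to 127 RPKM in jmj17-1 and 124 in WT. IRT1, an iron transporter of the root epidermis, stood at 5.07 RPKM in jmj17-1 and 3.43 in WT (log2 ratio 0.45). PRP3, a cell wall protein of root hairs, stood at 19.9 RPKM in jmj17-1 and 14.4 in WT (0.44). Apart from TIP2;3, the remaining log2 ratios were 0.25 for EXPA18, 0.10 for EXPA7, 0.08 for COBL9, 0.05 for SCR, 0.01 for PIN2, 0.005 for SHR and -0.10 for CASP1. TIP2;3 lay lowest of the root markers, at 23.6 RPKM in jmj17-1 and 28.97 in WT (-0.29). The 5 shoot markers had a median of -0.23, and 1 was past 1.5-fold downward, where 1.93% of all analysed features were. It was the carbonic anhydrase gene CA1, at 775 RPKM in jmj17-1 and 1214 in WT (fold 0.638). The counting interval of the fold lay below 1 for all 5 shoot markers, where 17.0% of analysed features with a reference length had such an interval. Markers this deep have narrow intervals, as for RBCS1A at a fold of 0.973 (0.969 to 0.977). The part of these marker shifts in the values of the members was not tested.

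The authors' deposited table gives a Z score and an unadjusted p for each feature, and a positive Z goes with a higher jmj17-1 value among the members. In that authors' deposited table GSTU19 had a Z of 3.32 (p of 0.000891), GSTU24 a Z of 2.55 (p of 0.0108) and GSTU7 a Z of 2.10 (p of 0.0354). These 3 members are in the authors' deposited list named for a p of 0.05, with all 3 higher, where 0.602% of 26743 features were listed as higher. GSTU19 and GSTU24 are also in the authors' deposited list named for 0.01, where 0.381% of features were listed as higher. The authors' deposited p of GSTU24, 0.0108, is above 0.01, so a place in that list does not mean a p under 0.01. In the authors' deposited table GSTU5 had a Z of -1.22 (p of 0.222), GSTU4 a Z of 0.652 (p of 0.514) and GSTU2 a Z of 0.153 (p of 0.878), and none of these is listed. GSTU4, with the highest plain fold, and GSTU19, with a fold of 1.23, stood on opposite sides of the lists, and their WT levels were 0.674 and 473 RPKM.

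Features outside the family with the most similar pair of values were sought by distance on the log2 scale over the 2 libraries. Nearest to GSTU24 were HR4 at 42.5 RPKM in jmj17-1 and 22.4 in WT, PMEAMT at 46.1 RPKM in jmj17-1 and 22.3 in WT, and CYP706A6 at 37.7 RPKM in jmj17-1 and 22.7 in WT. Nearest to GSTU5 were PnsL2 at 48.7 RPKM in jmj17-1 and 61.5 in WT, AT5G39530 at 47.6 RPKM in jmj17-1 and 60.98 in WT, and AT3G52060 at 47.3 RPKM in jmj17-1 and 62.03 in WT. Likeness over 2 libraries means a similar level and a similar ratio only.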

How the data were processed

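RPKM values of 26743 features were calculated and deposited by the authors for 1 jmj17-1 and 1 WT library. The submitters' processing notes name TAIR10 as the build. Aligner, counter, feature lengths and strand setting are not stated there. The Z score and the p-value of each feature are the authors' deposited values and are not adjusted. The columns were assigned by title, and 0 sample columns were left unassigned. Members and lists were chosen with earlier results of these data known.

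Depth was estimated from loci under 0.05 RPKM in a library, with exon lengths of the RefSeq annotation of TAIR10.1, as the depth most often implied if a locus held 1 read (met by 34.4% of 1242 loci in jmj17-1 and 32.5% of 1187 in WT). Read numbers are therefore approximate. Fold intervals are exact Clopper-Pearson 95% intervals of the share of reads, converted to a ratio, and level intervals are exact Poisson. Both cover counting error only. The rule for naming genes was every member, other tau genes past 1.5-fold and up to 4 genes with the largest absolute log2 ratio among other GST classes, glutathione genes, regulators, xenobiotic genes and array neighbours. GSTU8, GSTU16, GSTU18, GSTU20, GSTU23, GSTU26, SCL14, TGA2, TGA5, TGA6, CYP710A1 and the organ markers were named after their values were seen. So were CYP81D8, UGT75B1 and OPR1, to show the effect of the added 1. GSTU10 and GSTU28 were named for their short upstream stretches. Coding sequences were aligned globally with Biopython 1.88. Scripts (Python 3.11.15, pandas 2.3.3, SciPy 1.17.1) were tested on simulated data. Pseudocount, level filter and scaling were varied.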

Additional observations from a re-analysis of the deposited data

How the results depend on the processing

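Of 61 log2 ratios of single members over 7 alternative settings, 61 kept their sign and 59 moved by no more than the distance from the centre to the end of their 95% counting interval on the log2 scale. The other 2 were GSTU19, at 0.25 with the median of all features set to 0, and GSTU24, at 0.82 with a pseudocount of 5 RPKM. With a pseudocount of 0.1 RPKM 1 member, GSTU4, was past 2-fold upward, at 1.20. With a pseudocount of 5 RPKM the members' median log2 ratio was 0.31, and GSTU4 at 0.23 was no longer past 1.5-fold. With the median of all features set to 0 the fold of the members' sum was 1.20, and over the settings it ranged from 1.20 to 1.25. The count past 1.5-fold upward ranged from 2 to 3, and the count past 2-fold downward was 0 in every setting tried. The median of the other tau class genes ranged from -0.04 to 0.01, with a negative sign at a mean of at least 5 RPKM, with the median of all features set to 0 and with quantile normalization. At a mean of at least 5 RPKM 7 members remained. No paired analysis was possible because each genotype has 1 library. Depth limits GSTU2, with about 76 reads in each library, and GSTU4, with about 89 in jmj17-1 and 43 in WT.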
